A study of Mus musculus with 80 samples.

Results

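Id1, Id2, Id3, Id4, Smad6, Smad7, Bmp4 and Bambi were followed as mouse embryonic stem cells (ESCs) moved from serum medium to 2i. These 8 genes were picked by name, as a ligand of the bone morphogenetic protein (BMP) pathway and genes known to respond to it, from the 25965 rows of the RNA-seq table, and the rule uses their symbols and no measured value. Earlier results of these data were known when the genes were chosen. RNA-seq covered 12 libraries of the wild-type ESC line E14, with 3 replicates each in serum with the cytokine LIF and after 6, 24 and 72 h in 2i, a serum-free N2B27 medium that also contained LIF, with the MEK inhibitor PD0325901 and the GSK3 inhibitor CHIR99021. The histone mark H3K9me2, dimethylation of lysine 9 on histone H3, was read by ChIP-seq in 3 media, namely serum, 2i at 24 h and long-term 2i (LT2i), with 2 bound libraries and 1 input in each. Removal of serum and addition of both inhibitors happened together, so their parts in any change cannot be told apart, and BMP activity itself was not measured. The study describes its replicates of expression as biological and the labels do not say whether they were separate cultures, so p-values measure only the spread between these libraries.

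BMP ligands bind paired type I and type II receptors, which phosphorylate Smad1, Smad5 and Smad9, and these enter the nucleus with Smad4. Id genes are among the best-known direct targets of that complex in ESCs, and their products are helix-loop-helix proteins without a DNA-binding region that hold back bHLH transcription factors. Smad6 and Smad7 are inhibitory Smads that feed back on the receptors, and Bambi is a pseudoreceptor without kinase activity. In ESC culture, BMP from serum and the Id genes it induces are known to act with LIF against neural differentiation.

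The Id family did not move as a block in 2i. Id1, Id2 and Id3 fell at all 3 times and Id4 rose at all 3 times. Bmp4 had dropped to 14.5% of its serum level within 6 h. Smad7 fell first and then rose above its serum level, Smad6 fell and returned close to it, and Bambi passed no test. In the test across 11376 genes (limma, Benjamini-Hochberg adjusted p under 0.05), 7 of the 8 genes were called at 6 h, 1 higher and 6 lower, where 14.2% of all genes tested were called (8.24% higher and 6.01% lower). At 24 h 7 of 8 were called, again 1 higher and 6 lower, against a background of 62.7% (33.6% and 29.1%). At 72 h 6 of 8 were called, 2 higher and 4 lower, against 50.5% (24.5% and 26%). The share at 6 h therefore stood furthest from the background, and at the later times more than 1 in 2 of all genes tested were called as well. The members were chosen with earlier results of these data known, so these shares are a description and not a test. The 2i and serum libraries did not overlap for 7, 7 and 6 of the 8 genes, beside 43.8%, 64.2% and 62.5% of all genes tested.

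Between times in 2i, 5 of the 8 genes were called from 6 to 24 h, with Id4 and Smad7 higher and Id1, Id2 and Bmp4 lower, against a background of 59.5% (31.5% higher and 28% lower). From 24 to 72 h 4 were called, with Id4, Smad6 and Smad7 higher and Id1 lower, against 29.8% (15.2% and 14.6%). Without 24 h replicate 3, which lay apart from its group, 5 members were called against 54.5% of all genes, so the share of members lay near the background there. In each of these steps the libraries of 5 genes did not overlap, beside 61.5% and 31.8% of all genes tested.

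**Figure D1:**
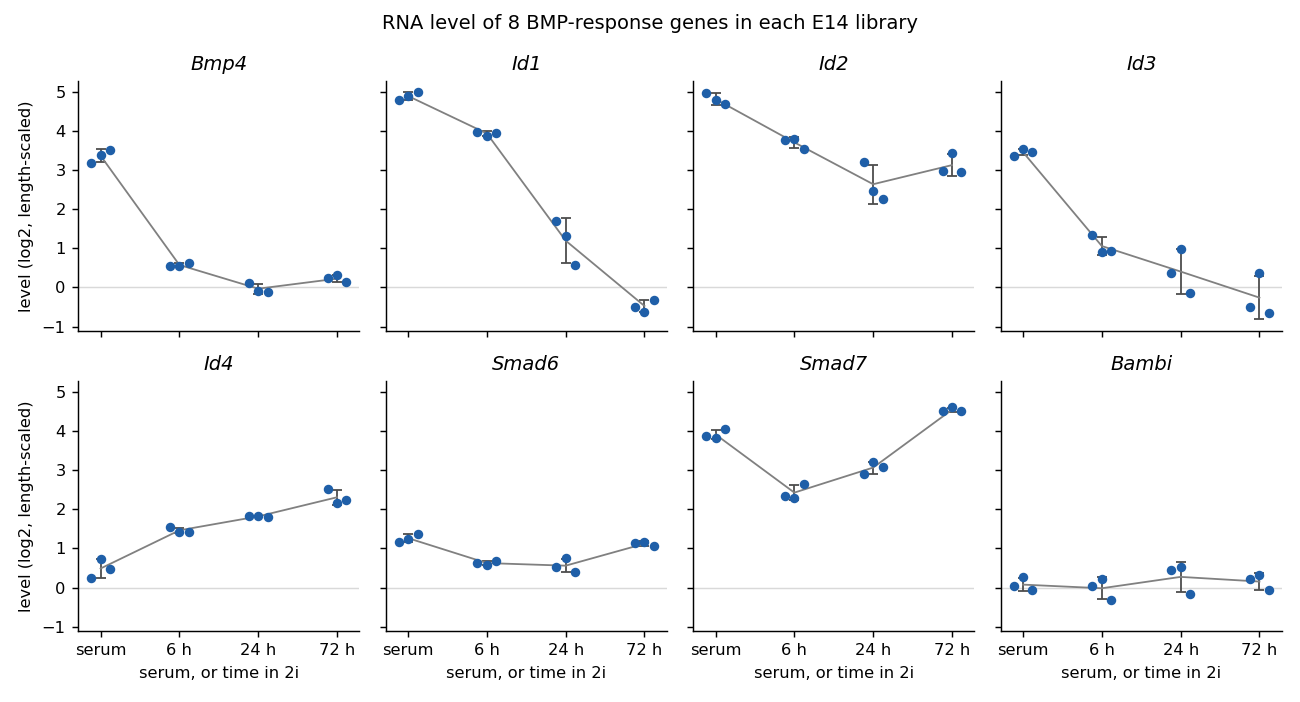
RNA level of the 8 genes (y axis, log2 of reads scaled to gene length and library, as deposited) in serum and after 6, 24 and 72 h in 2i (x axis, not to scale in time). Points are the 3 libraries of each group, bars the mean with its SD, and lines join the means; Id1 runs from 4.89 in serum to -0.47 at 72 h while Id4 runs from 0.49 to 2.30.

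Promoter windows of 3 Id genes are shown because these genes moved in opposite directions. The windows are from RefSeq on GRCm38.p6 and run from 250 bases before the annotated start to 50 bases after it, read 5′ to 3′ on the strand of the gene. Windows were found for 5 of the 8 genes, namely Id2, Id3, Id4, Smad6 and Bmp4. Id2 lies at chr12:25096043-25096342 on the minus strand, Id3 at chr4:136143572-136143871 on the plus strand and Id4 at chr13:48260866-48261165 on the plus strand. Capitals mark GGCGCC, a core of GC-rich elements that BMP Smads are known to bind, and CAGAC, the Smad-binding element, searched on both strands, so that GTCTG is CAGAC read on the other strand.
Id2: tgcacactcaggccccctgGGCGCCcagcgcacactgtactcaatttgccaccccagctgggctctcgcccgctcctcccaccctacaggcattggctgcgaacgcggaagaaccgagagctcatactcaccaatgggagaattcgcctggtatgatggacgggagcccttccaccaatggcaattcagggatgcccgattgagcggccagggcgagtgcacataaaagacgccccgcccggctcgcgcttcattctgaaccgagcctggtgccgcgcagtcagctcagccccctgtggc
Id3: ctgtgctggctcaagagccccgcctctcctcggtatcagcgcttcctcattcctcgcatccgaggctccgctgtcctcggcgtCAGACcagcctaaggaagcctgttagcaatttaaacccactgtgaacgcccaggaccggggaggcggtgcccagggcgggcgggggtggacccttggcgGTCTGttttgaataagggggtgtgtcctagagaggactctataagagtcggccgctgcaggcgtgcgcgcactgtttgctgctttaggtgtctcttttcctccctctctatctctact
Id4: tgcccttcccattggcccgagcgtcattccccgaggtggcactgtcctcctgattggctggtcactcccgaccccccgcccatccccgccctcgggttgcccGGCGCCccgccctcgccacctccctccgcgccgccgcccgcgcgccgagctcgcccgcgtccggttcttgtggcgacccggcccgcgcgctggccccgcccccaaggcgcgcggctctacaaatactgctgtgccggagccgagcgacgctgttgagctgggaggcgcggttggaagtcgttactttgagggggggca

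GGCGCC occurred once in the windows of Id2 (from -231 relative to the start) and Id4 (from -148), and not in those of Id3, Smad6 and Bmp4. Of the 32851 windows of this length in the table, 11.9% held it. Among these 5 windows CAGAC was found only in Id3, which held it 2 times (from -167 and -68), while 49.6% of all windows held it. The E-box CANNTG, the motif of bHLH factors, was found 3 times in Bmp4, once in Id2 and once in Smad6, and 72.3% of all windows held it. None of these motifs overlapped within a window. The window of Id4 was the richest in G and C of the 5, at 73.3% with 39 CpGs, against 60% with 19 CpGs in Id3, 63.3% with 21 in Id2, 66.3% with 31 in Smad6 and 64% with 12 in Bmp4. The median over all windows was 52.7% with 7 CpGs. The riser Id4 and the faller Id2 thus both held GGCGCC. No window was found for Id1 and bases further from the start were not searched, so whether these motifs go with the directions was not tested. The RNA-seq row of Id4 starts at chr13 position 48261427, past the end of the RefSeq window. That of Id3 starts at chr4 position 136143497, before its window begins, so the whole window of Id3 lies within its RNA-seq row.

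Bmp4, the ligand among the 8, stood at 3.18, 3.39 and 3.52 on the log2 scale in the 3 serum libraries. After 6 h in 2i it stood at 0.54, 0.55 and 0.63, after 24 h at 0.12, -0.09 and -0.13, and after 72 h at 0.23, 0.31 and 0.14. Every 2i library lay below every serum library, by more than the whole spread within either medium. At 6, 24 and 72 h the fall was 2.79 ± 0.13 (log2, SE), 3.39 ± 0.13 and 3.14 ± 0.13 (limma adjusted p = 1.42e-07, 1.45e-08 and 8.84e-09), and the first of these was the 7th largest fall of all genes tested. Bmp4 fell a little further from 6 to 24 h, by 0.61 ± 0.13 (limma adjusted p = 0.00199), and the step from 24 to 72 h of 0.26 ± 0.13 did not pass (limma adjusted p = 0.136). With the trend of the changes with gene length taken out, described further on, these steps were -0.96 and 0.52 and both passed (limma adjusted p = 0.000125 and 0.0106). Behind these levels stood 364 to 583 reads per library in serum and 37 to 66 in 2i. The row of Bmp4 (chr14:46383520-46390669, minus strand) overlaps the plus-strand rows Gm15217 and Gm15222, and without strand in the library their reads cannot be told apart from those of Bmp4. These are bulk RNA values, in which fewer cells with a transcript and less of it per cell cannot be told apart.

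Id1 was the highest of the 8 genes in serum per length, at 4.79, 4.89 and 4.98, a level that overlapped that of Id2. It stood at 3.97, 3.86 and 3.95 after 6 h, at 1.70, 1.31 and 0.57 after 24 h and at -0.49, -0.62 and -0.31 after 72 h. No 2 groups overlapped, and by 72 h Id1 had become the lowest of the 8 by its mean, although its libraries overlapped those of Id3. The decline was stepwise. It was 0.96 below serum at 6 h (SE 0.22), 3.69 below at 24 h and 5.36 below at 72 h (limma adjusted p = 0.0136, 2.94e-07 and 1.18e-08), which left 51.5%, 7.75% and 2.44% of the serum level. The 6 h call was lost without serum replicate 3 or without 6 h replicate 2 (limma adjusted p = 0.0515 and 0.0553), with values of -0.91 and -0.92. Both later steps passed on their own, with a fall of 2.73 from 6 to 24 h and of 1.67 from 24 to 72 h (limma adjusted p = 7.87e-06 and 0.000325). In reads, Id1 went from 536 to 834 per library in serum to 14 to 19 at 72 h, and its fall at 72 h was the 10th largest of all genes tested.

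Id3 was far below serum already at 6 h. Its libraries stood at 3.37, 3.53 and 3.47 in serum, at 1.33, 0.91 and 0.92 after 6 h, at 0.36, 0.99 and -0.14 after 24 h and at -0.51, 0.38 and -0.65 after 72 h. All 2i libraries lay far below serum, while the times in 2i overlapped each other from 6 to 24 h and from 24 to 72 h. Id3 had lost 2.40 ± 0.30 (log2, SE) by 6 h, 3.05 ± 0.30 by 24 h and 3.71 ± 0.30 by 72 h (limma adjusted p = 0.000238, 1.02e-05 and 1.97e-06). The later steps, -0.65 and -0.67, did not pass (limma adjusted p = 0.0802 and 0.11). The first passed at -0.94 without 24 h replicate 2 and at -0.65 without 72 h replicate 2, and the second passed at -0.94 without 24 h replicate 3 and at -0.98 without 72 h replicate 2. With the length trend taken out the first was -1.15 and passed (limma adjusted p = 0.000968), while the second was -0.34 and did not pass (limma adjusted p = 0.238), so whether Id3 fell further after 6 h depended on these choices. At 72 h Id3 rested on 22 to 43 reads per library, so the order of Id1 and Id3 at that time was not resolved.

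Id2 fell as well and kept a sizeable level in 2i. It stood at 4.96, 4.78 and 4.67 in serum, at 3.77, 3.80 and 3.54 after 6 h, at 3.19, 2.45 and 2.26 after 24 h and at 2.98, 3.44 and 2.95 after 72 h. Serum was above every 2i library, and the 24 h and 72 h libraries overlapped. The falls were 1.10, 2.17 and 1.68 at 6, 24 and 72 h (SE 0.22, limma adjusted p = 0.00555, 1.2e-05 and 7.66e-05). From 6 to 24 h Id2 fell by 1.07 (limma adjusted p = 0.0019), and from 24 to 72 h it differed by 0.49 ± 0.22 in the upward direction, which did not pass (limma adjusted p = 0.109). Without 24 h replicate 1 that step was 0.77 and passed (limma adjusted p = 0.00805), and it was 0.81 and passed with the length trend taken out (limma adjusted p = 0.00139).

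Id4 was the only one of the 4 Id genes tested that rose. It was low in serum, at 0.25, 0.73 and 0.48, and reached 1.53, 1.43 and 1.42 after 6 h, 1.83, 1.83 and 1.79 after 24 h and 2.51, 2.16 and 2.24 after 72 h. No 2 groups overlapped, and each later time lay above the one before. Against serum the rise was 0.97 ± 0.14 (log2, SE), 1.33 ± 0.14 and 1.82 ± 0.14 (limma adjusted p = 0.000596, 1.46e-05 and 1.21e-06), or 1.96-fold, 2.51-fold and 3.52-fold. Reads per library rose from 37 to 53 in serum to 137 to 218 at 72 h. By 72 h Id4 ranked 3rd in level among the 8 genes, behind Smad7 and Id2, where in serum it had ranked 7th and had overlapped Bambi. The step from 24 to 72 h of 0.49 (limma adjusted p = 0.0217) missed the threshold without 24 h replicate 2 or without 72 h replicate 1, at 0.49 and 0.38, and when only the 6 libraries compared were fitted (limma adjusted p = 0.0745). With the length trend taken out it was 0.81 (limma adjusted p = 0.00922).

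Gene length moved with the 24 h values and touches the Id genes, which are short. Genes were split by genomic span into 5 equal classes, and the shortest class (93 to 6207 bp, which holds all 4 Id genes at 1160 to 2610 bp) had a median change of 0.53 at 24 h, against -0.41 in the longest class. At 6 h the same medians were -0.02 and 0.02, and at 72 h 0.18 and -0.14. With that trend taken out, Id4 was still higher at 24 h, by 0.86 (limma adjusted p = 0.00257), and Id1 was lower by 4.29. The step of Id4 from 6 to 24 h, which was 0.36 (limma adjusted p = 0.0441), became -0.13 and did not pass, and it also missed the threshold at 0.34 to 0.39 when any 1 of the 6 h or 24 h libraries, serum replicate 3 or 72 h replicate 3 was left out. The 24 h group was the most spread of the 4, and its replicate 3 lay 0.62 from the other libraries of its group (root mean square of log2 differences over genes) against 0.16 to 0.48 in the remaining libraries.

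To ask whether the 4 Id genes changed by different amounts, the difference between the log2 levels of 2 genes was taken within each library, which removes the scaling of the library, and the 3 serum libraries were compared with the 9 of 2i by an exact two-sided permutation test over 6 pairs. The 9 libraries cover 3 times and are not replicates of one condition. Id1 stood 4.40 above Id4 in serum and 0.31 below it on average in 2i, a shift of 4.71 (exact permutation p = 0.00909, Benjamini-Hochberg p = 0.0136). The shift was -3.03 for Id2 minus Id4 and -4.43 for Id3 minus Id4, both at the smallest p that 220 arrangements allow (exact permutation p = 0.00455, Benjamini-Hochberg p = 0.0136). Id2 minus Id3 went from 1.35 in serum to 2.75 in 2i, so Id3 fell further than Id2 (exact permutation p = 0.00909, Benjamini-Hochberg p = 0.0136). This last call was lost when either serum replicate 2 or serum replicate 3 was left out, at 1.35 and 1.33 (Benjamini-Hochberg p = 0.0546 in each exact test). With a serum library left out, fewer arrangements exist and p moves in coarser steps. The shift itself stayed close to the 1.40 of all 12 libraries. Id1 minus Id2 shifted by -1.68 and Id1 minus Id3 by -0.28, and neither passed (Benjamini-Hochberg p = 0.164 and 0.768, exact permutation tests). The test averages over the 3 times in 2i. With 72 h as the only time of 2i, Id1 minus Id2 shifted by -3.67 and Id1 minus Id3 by -1.64. There, 3 against 3 libraries allow no exact permutation p under 0.1. The order of Id1 and Id3 at single times was not tested.

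**Figure D2:**
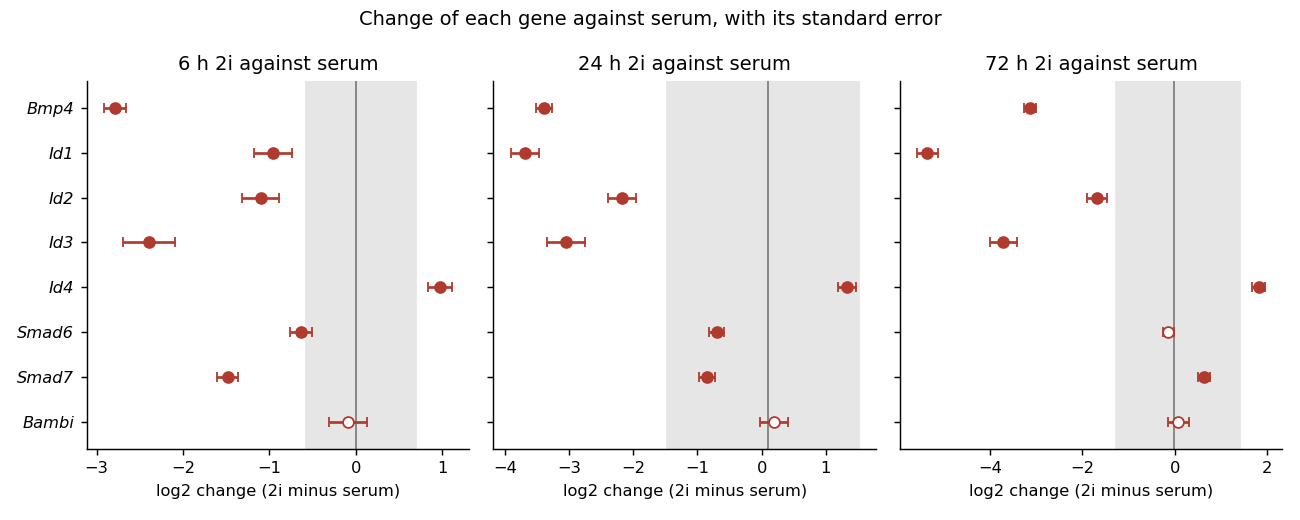
Log2 change of each gene from serum (x axis) after 6, 24 and 72 h in 2i, with its standard error. Filled points passed limma at adjusted p under 0.05 and open points did not, the grey band holds the 5th to 95th percentile of all 11376 genes tested and the grey line their median; Bmp4, Id1, Id2 and Id3 lie left of the band at every time, and Id4 lies right of it at 6 and 72 h.

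The inhibitory Smads Smad6 and Smad7 were lower in early 2i. Smad7 stood at 3.86, 3.81 and 4.05 in serum, fell to 2.34, 2.28 and 2.65 after 6 h, stood at 2.90, 3.20 and 3.09 after 24 h and reached 4.52, 4.60 and 4.49 after 72 h. No 2 of these groups overlapped. Smad7 was thus 1.48 ± 0.12 (log2, SE) below serum at 6 h and 0.85 below at 24 h, and at 72 h it was 0.63 above (limma adjusted p = 1.22e-05, 0.000155 and 0.00133). The step from 24 to 72 h alone was a 2.78-fold rise (limma adjusted p = 1.38e-05). With 390 to 2383 reads per library, Smad7 was the most deeply covered of the 8 genes, and at 72 h it had the highest level per length of them.

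Smad6 showed a smaller dip. Its libraries stood at 1.16, 1.25 and 1.37 in serum, at 0.62, 0.58 and 0.68 after 6 h, at 0.52, 0.75 and 0.41 after 24 h and at 1.13, 1.18 and 1.06 after 72 h. The 6 h and 24 h libraries all lay below serum, and those of 72 h overlapped with serum. The falls of 0.64 and 0.70 at 6 and 24 h passed (SE 0.12, limma adjusted p = 0.00448 and 0.000509). Smad6 spans 68984 bp and belongs to the longest class of genes, and with the length trend taken out its 24 h value was -0.38 (limma adjusted p = 0.0419). The 72 h value of -0.14 did not pass (limma adjusted p = 0.354). From 24 to 72 h Smad6 rose by 0.56 (limma adjusted p = 0.00589), a call that was lost with the length trend taken out, at 0.38, and when only the 6 libraries compared were fitted (limma adjusted p = 0.0718 and 0.0745). Whether Smad6 and Smad7 differed in their changes was not tested.

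Bambi was near the low end of the levels tested. It stood at 0.03, 0.26 and -0.07 in serum, at 0.05, 0.22 and -0.32 after 6 h, at 0.45, 0.53 and -0.17 after 24 h and at 0.21, 0.33 and -0.07 after 72 h. Every group overlapped every other. The changes were -0.09, 0.20 and 0.08 with an SE of 0.22 (limma adjusted p = 0.898, 0.445 and 0.787), on 77 to 134 reads per library. The step from 6 to 24 h of 0.29 did not pass (limma adjusted p = 0.268) and did so at 0.51 without 24 h replicate 3 (limma adjusted p = 0.0403).

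The other genes of the pathway were taken from a list of 66 in 7 groups, of which 31 passed the filter on low levels. Of these 31, 12 were called at 6 h (10 higher, 2 lower), 20 at 24 h (9 higher, 11 lower) and 19 at 72 h (13 higher, 6 lower). That is 38.7%, 64.5% and 61.3%, beside 14.2%, 62.7% and 50.5% of all genes tested. The median change was 0.15, -0.21 and 0.04, beside 0.01, 0.10 and -0.01 over all genes tested. At 24 h the share thus lay close to the background. This list, too, was chosen with earlier results of these data known. The filter is on the mean over all 12 libraries, so it takes in genes that are low in serum and high in 2i and leaves out genes that go from a low level to a lower one. Bmp7, Rgma and Dand5 stood below 0 in serum and passed it through their levels in 2i and are among the 10 called higher at 6 h, so these counts do not describe all 66 genes, and the values of these 3 are given below as a description, with no test. Without the filter, 18, 28 and 34 of 64 pathway genes were called at 6, 24 and 72 h, or 28.1%, 43.8% and 53.1%, beside 11.7%, 47.4% and 41.1% of 19814 genes. The 12 calls at 6 h became 7 without serum replicate 2 and 7 without 6 h replicate 2, where the share of all genes fell as well, to 9.3% and 9.16%.

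Among the other ligands, 2 of 15 were tested. Bmp7, which encodes a ligand of the same family as Bmp4, was higher in 2i. It ranged from -1.72 to -0.79 in serum, from 0.47 to 0.65 after 6 h, from 2.08 to 2.43 after 24 h and from 2.39 to 2.46 after 72 h. The differences from serum were 1.87, 3.57 and 3.72 (log2, SE 0.20), or 13.2-fold at 72 h. Gdf3 was called at no time, with values between -0.26 and 0.18. Of the ligands that missed the filter, Bmp8a and Bmp8b stood above Bmp7 in serum and were picked out after their values were seen. Bmp8a ranged from 0.15 to 0.65 in serum, from -1.45 to -0.88 at 6 h, from -4.35 to -1.92 at 24 h and from -2.31 to -1.70 at 72 h. Bmp8b ranged from 0.63 to 0.94 in serum, from -0.07 to 0.09 at 6 h, from -2.19 to -1.25 at 24 h and from -2.39 to -1.92 at 72 h. All 2i libraries of both lay below serum, without a test.

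Of 11 receptors and co-receptors, 9 were tested, and 7 and 6 of them were called at 24 and 72 h, Rgma included. That is 77.8% and 66.7%, beside 62.7% and 50.5% of all genes tested, so these shares lay near the background. Rgma, a membrane-anchored BMP co-receptor, ranged from -0.60 to -0.39 in serum and from 2.90 to 3.11 at 6 h. Its differences from serum were 3.48 ± 0.16 (log2, SE), 1.97 and 2.01 at the 3 times. The type I receptor Acvr1 rose later, by 0.78 at 24 h and by 1.64 at 72 h (adjusted p of 0.00527 and 3.97e-05 in limma). The type II receptor Bmpr2 stood close to serum at 6 h (0.03 ± 0.30), then 3.34 below it at 24 h and 1.62 below it at 72 h (limma adjusted p = 4.76e-06 and 0.000874). The type II receptor Acvr2b was lower by 0.82 and 0.90 at these times (limma adjusted p = 0.00063 and 0.000398). The receptor genes thus did not share a direction.

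Of 4 Smads that carry the signal, 3 were tested. Smad1 was higher at all 3 times, by 0.52, 0.48 and 0.71 (SE 0.14, limma adjusted p = 0.0255, 0.0101 and 0.00127). Smad5 and the shared partner Smad4 were lower at 24 h, by 0.57 and 0.39, and at 72 h, by 0.39 and 0.38 (limma adjusted p = 0.0022, 0.00196, 0.021 and 0.00275). Each of these was smaller than the change of any Id gene at the same time.

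Of 13 secreted antagonists and binding proteins, 3 were tested. Dand5, a Cerberus-family antagonist, differed from serum by 0.61, 2.05 and 1.42 (SE 0.18), from a serum mean of -0.91. Twsg1, a BMP-binding protein, was higher by 0.47, 0.45 and 0.29 (limma adjusted p = 0.00392, 0.00119 and 0.0179). Fst, which encodes the activin and BMP antagonist follistatin, was lower at 24 h, by 1.04 (limma adjusted p = 0.00329), and its values of -0.76 at 6 h and -0.43 at 72 h did not pass (limma adjusted p = 0.0602 and 0.16). Fst and, above, Gdf3 were picked out after their values were seen. Among 8 intracellular modulators, all tested, Zfp423 fell most. It encodes a zinc finger protein that works with BMP Smads. It was lower by 1.69, 2.78 and 4.28 (SE 0.22, limma adjusted p = 0.000367, 2.45e-06 and 6.2e-08), which left 5.16% of the serum level at 72 h. Skil, a repressor that binds Smads, was lower by 0.80, 1.71 and 1.31 (limma adjusted p = 0.00243, 2.62e-06 and 1.64e-05). Tob1, which binds BMP Smads and dampens them, was higher by 0.55, 0.70 and 1.25 (limma adjusted p = 0.0104, 0.0005 and 7.5e-06). Pmepa1, which sequesters Smads, rose by 0.43 at 6 h and by 0.84 at 72 h (adjusted p of 0.0295 and 0.000122 in limma).

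Of 10 other genes known to respond to BMP, 3 passed the filter, namely Gata2, Msx2 and Dusp9. No one of these was called lower at 6, 24 or 72 h, where 6.01%, 29.1% and 26% of all genes tested were. A count over 3 genes does not set the group apart from that background. Gata2, a zinc finger transcription factor, ranged from -0.02 to 0.28 in serum and from 2.27 to 2.51 at 72 h. Its rise was 0.61, 1.32 and 2.32 at the 3 times (SE 0.13, limma adjusted p = 0.00729, 8.11e-06 and 8.18e-08). Msx2, a homeobox gene, rose by 0.86 at 6 h and by 1.39 at 72 h (adjusted p of 0.00739 and 6.93e-05 in limma), with a value of 0.42 at 24 h that did not pass (limma adjusted p = 0.0579). Among the 7 that missed the filter, directions were mixed, and the following were picked out after their values were seen. Tbx20 ranged from -0.06 to 0.07 in serum, from -2.03 to -1.43 at 6 h, from -3.93 to -2.34 at 24 h and from -0.89 to -0.15 at 72 h. Gata3 had a mean of -0.05 in serum, overlapped serum at 6 h, and ranged from -2.49 to -1.65 at 24 h and from -1.50 to -0.84 at 72 h. Msx1 lay below serum without overlap at 24 h, with a mean of -1.69 against -0.90. Dlx3 lay above serum without overlap at all 3 times, with means of 0.05, -0.15 and -0.52 against -1.43.

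Of 5 bHLH partners of Id proteins, 3 were tested. Of these, 0, 1 and 0 were called at 6, 24 and 72 h, beside 14.2%, 62.7% and 50.5% of all genes tested. The call was a fall of Tcf4 by 0.94 at 24 h (limma adjusted p = 0.00121), and its value of -0.42 at 72 h did not pass (limma adjusted p = 0.0792). For Tcf4 and the other pathway genes, values are given without the length trend taken out. Tcf4 was picked out after its value was seen.

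**Figure D3:**
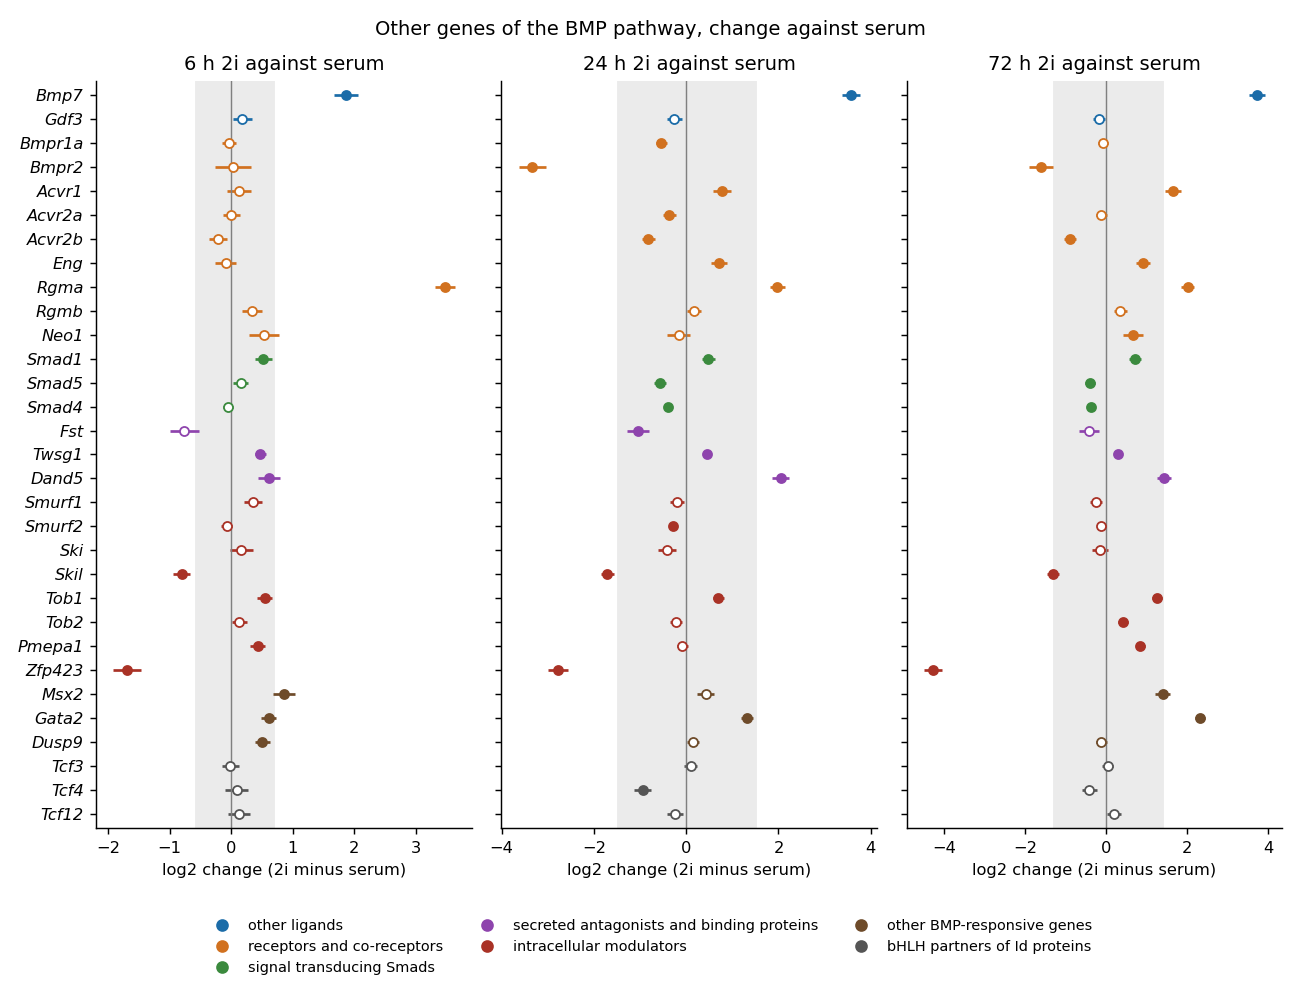
Log2 change from serum (x axis) of the 31 other pathway genes that passed the filter, after 6, 24 and 72 h in 2i, with standard errors. Colours give the 7 groups, filled points passed limma at adjusted p under 0.05, and the grey band holds the 5th to 95th percentile of all genes tested; Bmp7 and Rgma lie right of the band and Zfp423 left of it at all 3 times.

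The cells carried the markers of their label. All 7 pluripotent cell markers were above 0 on the log2 scale in every group. Their summed level on the linear scale was 868 to 937 in serum and 1117 to 1419 at 72 h. They did not share a direction. Higher calls numbered 3, 3 and 4 of 7 at 6, 24 and 72 h, and lower calls 2, 1 and 1. Over all genes tested, 14.2%, 62.7% and 50.5% were called. Zfp42 was lower by 0.49, 0.81 and 0.67 (limma adjusted p = 0.0381, 0.000467 and 0.00204). Sox2 was lower at 6 h, by 0.85 (limma adjusted p = 0.000352). Markers of other cell types summed to far lower levels than the pluripotent list. Sums of 4 of the 5 lists were lower at 72 h than in serum, although single markers within a list differed in direction. Not every single marker was low. Col1a1 (fibroblast) and Nes (neural) had means of 2.49 and 2.83 in serum and 1.53 and 1.96 at 72 h. Fibroblast markers summed to 7.67 to 9.79 in serum and 4.54 to 4.99 at 72 h, with 5 of 7 (Col1a2, Col3a1, Dcn, Lum and Postn) below 0 in every group. Neural markers summed to 8.50 to 10.03 in serum and 4.26 to 6.16 at 72 h, with Pax6 below 0 by its mean in every group. Primitive endoderm markers summed to 4.66 to 4.95 and 3.80 to 4.61, with Sox17, Sox7, Foxa2 and Pdgfra below 0 in every group. At 72 h Gata4 and Sox17 of that list lay above serum without overlap and Dab2 and Sox7 below it, while Gata6, Foxa2 and Pdgfra overlapped serum. Of the neural markers, Sox1 overlapped serum at 72 h and Pax6 and Nes lay below it. Single markers given with values or directions in this paragraph were picked out after their values were seen. Mesoderm markers summed to 2.73 to 3.50 and 2.93 to 3.09 (Mixl1 and Mesp1 below 0 throughout). Trophectoderm markers summed to 2.22 to 2.84 and 1.17 to 1.57 (Elf5 below 0 throughout), after 3.06 to 3.45 at 6 h, above serum. Of the trophectoderm list at 6 h, only Cdx2 lay above serum without overlap, while Hand1 lay below it and Elf5 overlapped it. Targets of ERK, the kinase below MEK, lay lower in 2i by their sum, although not every one did. Of the 4 tested, 3, 4 and 4 were called lower at 6, 24 and 72 h, beside 6.01%, 29.1% and 26% of all genes tested. Etv5 was close to serum at 6 h (-0.05, limma adjusted p = 0.898). Fos, which missed the filter, overlapped serum at all 3 times. The summed level of the 7 listed was 224 to 248 in serum, 113 to 120 at 6 h, 56 to 67.4 at 24 h and 60.7 to 68.1 at 72 h, without overlap between serum and any time in 2i. The part of these gene lists in the changes of the 8 genes was not tested.

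Genes whose levels ran most like those of each member were found by Pearson's r of log2 values over the 12 libraries, which share 4 groups, so high values are common and are given as a description. Id1 ran closest to Dnmt3l, the cofactor of the de novo DNA methyltransferases (r = 0.995), followed by Pdzd4 and Gbp2. Id2 ran closest to Zfp936, Ttc33 and G3bp2 (0.988 to 0.968), and Id3 to Zfp259, Plaur and Glul (0.978 to 0.975). Id4 ran closest to the homeobox gene Irx3, with Aldh3a2 and Elovl7 next (0.983 to 0.978). Bmp4 ran closest to Khdrbs1, Phlda1 and Enc1 (0.988 to 0.987). Smad7 was followed most closely by Fam43a, Itpk1 and Llgl2 (0.99 to 0.963), and Smad6 by Bsdc1, 1600021P15Rik and Irf1 (0.978 to 0.965). For Bambi the closest were Plrg1, Eif2b5 and Jagn1, at 0.934 to 0.925, the lowest leading value of the 8.

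H3K9me2 is a histone mark of repressed chromatin, and it was read within 10 kb either side of each gene start as the log2 ratio of bound to input reads. All 8 genes lay below 0 in all 6 bound libraries, that is, below their input. The median over 23354 genes with 50 or more reads in every input was also below 0, at -1.03 in serum, -1.05 at 24 h of 2i and -1.77 in LT2i. Id3, Id1, Smad7 and Smad6 were among the lowest genes in serum, with 2.17%, 6.39%, 8.25% and 13.3% of genes below them. Bmp4, Id2, Bambi and Id4 were nearer the middle, with 32%, 36%, 45.5% and 53.3% below them.

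**Figure D4:**
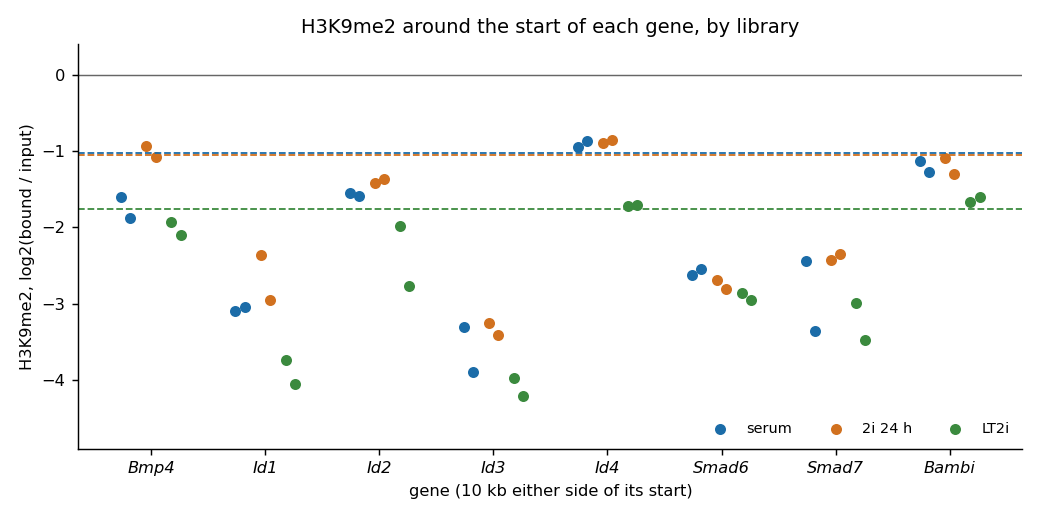
H3K9me2 as log2 of bound over input reads (y axis) within 10 kb of the start of each gene, with the 2 bound libraries of each medium (serum, 2i at 24 h, LT2i) as points. Dashed lines are the medians over 23354 genes in the same 3 groups, at -1.03, -1.05 and -1.77; Id1, Id3, Smad6 and Smad7 lie below these lines in every library.

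The 2 genes with enough reads to be tested, Id4 and Bambi, were called lower in LT2i and at 24 h neither was. Id4 stood at -0.95 and -0.87 in serum, -0.90 and -0.86 at 24 h and -1.73 and -1.71 in LT2i. Bambi stood at -1.13 and -1.28 in serum, at -1.09 and -1.31 at 24 h and at -1.68 and -1.61 in LT2i. For both, the LT2i libraries lay below all others. Of 10805 genes with 50 or more reads in every library, 8.79% were called at 24 h (4.11% higher and 4.68% lower) and 52.6% in LT2i (15.9% higher and 36.8% lower). The 24 h share fell to 2.38% and 4.31% without serum replicate 1 or 2 and to 1.89% and 1.71% without 24 h replicate 1 or 2. The differences in LT2i were -0.81 ± 0.16 for Id4 and -0.44 ± 0.16 for Bambi (limma adjusted p = 6.43e-05 and 0.0234), beside a median of -0.16 over the genes tested, and at 24 h they were 0.03 and 0.01 (limma adjusted p = 0.928 and 0.987). The genes tested had to keep 50 reads in LT2i as well, and over the wider set of 23354 genes the median was lower in LT2i too, as given above. In that set Id4 held nearly the same rank, with 53.3% of genes below it in serum and 51% in LT2i, and Bambi went from 45.5% to 52.4%, so their lower values in LT2i moved with those of genes in general. The call for Bambi was lost without serum replicate 1, LT2i replicate 1 or LT2i replicate 2, at -0.36, -0.40 and -0.47. Each medium had 1 input, whose error is not in these tests.

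The remaining 6 genes had 8 to 66 bound reads per library and were not tested at this depth. Id1 had 23 and 23 reads in serum, 26 and 18 at 24 h and 13 and 9 in LT2i, with log2 ratios of -3.09 and -3.04, -2.37 and -2.95, and -3.74 and -4.05. The 24 h libraries of Bmp4, at -0.93 and -1.07, both lay above those of serum, at -1.60 and -1.88, and LT2i, at -1.93 and -2.10. Bmp4 was picked out here after its values were seen. With the minimum lowered to 10 reads this difference of 0.74 at 24 h did not pass (limma adjusted p = 0.0608), and Id2 joined Id4 and Bambi as lower in LT2i, by 0.81 (limma adjusted p = 0.00655), where 63.6% of 21487 genes were called, and it rested on 32 and 16 reads in LT2i. The series holds no RNA-seq of LT2i, so levels of RNA and H3K9me2 can be set side by side only for serum and 24 h. The titles of the ChIP-seq libraries name no cell line, while those of RNA-seq name E14. Between these, Id4 RNA rose 2.51-fold with no detected difference in its ratio of bound to input H3K9me2 reads. The reads are scaled between libraries, so a loss spread evenly over the genome would not show in this ratio. The study describes a rapid global loss of the mark, seen by other methods. Whether the absolute amount of H3K9me2 at Id4 changed by 24 h was therefore not tested.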

How the data were processed

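RNA was measured in 12 E14 libraries and H3K9me2 in 6 bound and 3 input libraries. The RNA-seq table, as deposited by the authors, gives a log2 value per gene that allows for gene length and depth, with the 75th percentile equal (2.51) in every library. Gene positions are those of GRCm38, and the submitters' processing notes name Trim Galore 0.3.5, TopHat2 2.0.11 and Bowtie2 without their roles. Where a gene had no reads, 0.9 reads had been put in before the logarithm. From that floor, reads were recovered with the smallest whole gene length up to 30000 bp that made all 12 values whole (within 0.02 reads), which was found for all 11376 genes tested (100%). The lengths are thus inferred, and the read numbers are a check beside the log2 values. Libraries held 11345002 to 16819819 recovered reads. The ChIP-seq table, deposited as log2 reads in bins of 2000 bp and scaled between libraries, held 14396552 to 23785128 reads once the scaling was undone.

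Genes with a mean log2 value of 0 or more were tested with limma 3.58.1 (R 4.3.3, eBayes with a trend, all 12 libraries in 1 fit) and Benjamini-Hochberg adjustment. H3K9me2 was tested the same way on genes with 50 or more reads in every library. All 8 members are named, with the 3 genes most like each by Pearson's r. Of each pathway list, the 2 largest rises and 2 largest falls at 72 h among called genes and genes called at all 3 times are named, and markers as counts, ranges and those below 0. Genes named outside these rules are said to be picked out after their values were seen. The members and lists were chosen with earlier results of these data known. Bisulfite files use NCBIM37 and were not used here. Alternatives covered normalisation, low-value filters, a pseudocount, gene span, fewer libraries, a fold minimum, the replicate block and, added after seeing the data, limma voom on the recovered reads. Read numbers carry counting error only.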

Additional observations from a re-analysis of the deposited data

Results flagged for a closer look

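Effects against serum at different times differed for 6 of the 8 genes by the test of the step between the times, which shares the serum libraries on both sides (limma, adjusted p under 0.05). For Id1 the steps were -2.73 from 6 to 24 h and -1.67 from 24 to 72 h, and for Id2 -1.07 from 6 to 24 h. Id4 differed by 0.36 and 0.49 in these steps, Smad7 by 0.64 and 1.48, Smad6 by 0.56 from 24 to 72 h and Bmp4 by -0.61 from 6 to 24 h. Smad7 was the one gene whose called effects against serum changed sign, from -1.48 at 6 h to 0.63 at 72 h. Over all genes tested, 59.5% were called between 6 and 24 h and 29.8% between 24 and 72 h. Groups of 3 libraries are too small for a test of single outlying libraries.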

How the results depend on the processing

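Of 988 values of single genes under the alternatives, 919 had the same sign and the same call, 31 lost the call, 14 gained it and 24 changed sign. Every called change against serum of Bmp4, Id1, Id2, Id3, Id4, Smad6 and Smad7 had the same sign under every alternative run, limma voom on recovered reads (added after seeing the data) included. The cause of the other moves was not tested, beyond fewer libraries or a stricter rule.

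With a log2 change of 1 or more required as well, 4 members were called at 6 h, 2 from 6 to 24 h and 2 from 24 to 72 h, where 4.07%, 20.3% and 7.39% of all genes were, and 3, 8 and 10 genes of the BMP pathway list at 6, 24 and 72 h, where 4.07%, 25.1% and 17.9% were. With only the 6 libraries compared, 2 members were called from 24 to 72 h, where 10.7% of all genes were. Without the filter on low values 34 of 64 pathway genes were called at 72 h, and 41.1% of all genes. Leaving out 1 library gave 7 to 13 pathway genes at 6 h, where 9.16% to 18.6% of all genes were called.

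With the gene span trend removed, alone or with the replicate block, Bambi was -0.10 at 24 h, -0.0128 from 6 to 24 h and 0.12 from 24 to 72 h, Smad6 0.0017 at 72 h and 0.29 from 6 to 24 h (0.0141 with voom), and Id4 -0.13 from 6 to 24 h. With quantile normalisation Bambi was -0.0056 at 72 h. Leaving out 1 library gave Bambi -0.21 to 0.0609 at 6 h, -0.0083 to 0.19 at 72 h and -0.34 to 0.0115 from 24 to 72 h, and Smad6 -0.16 to 0.0079 from 6 to 24 h.

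With the 72 h libraries as the only ones of 2i, the shifts were -7.17 for Id1 minus Id4, 2.03 for Id2 minus Id3, -3.50 for Id2 minus Id4 and -5.53 for Id3 minus Id4. For Id1 minus Id2 and Id1 minus Id3 they were -3.67 and -1.64. All 6 pairs stood at p = 0.1, the smallest that an exact test of 3 against 3 allows. Leaving out 1 library gave 1.29 to 1.56 for Id2 minus Id3.

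For H3K9me2 at 24 h, Id4 was -0.14 and Bambi -0.13 on bound reads alone, and Bambi -0.0285 over the gene span. Leaving out 1 library gave -0.0145 to 0.0721 for Id4 and -0.10 to 0.11 for Bambi. In LT2i 0 members were called over the gene span, where Id4 lacked 50 reads and Bambi was -0.29 (limma adjusted p = 0.103). There 7157 genes were called, of a number tested that is not given here, so the count of members has no background share. Without 1 library 1 to 2 members were called, where 40.6% to 51.3% of all genes were.

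Same-numbered libraries often deviated together, with 15 of 18 pairs above 0.1 (r of deviations from -0.32 to 0.85, median 0.39) and 8 of 12 libraries correlated best with their own number. The labels do not say that a number marks a shared culture or day and not every pair passed 0.1, so the replicate block was kept as an alternative. With it, 7, 7 and 6 members were called against serum, where 19.6%, 70.8% and 59.7% of all genes were. In the 2 steps between times 6 and 5 members were called, where 68.5% and 46.5% of all genes were. Both steps of Id3 passed with the block (-0.65 and -0.67, limma adjusted p = 0.0384 and 0.0497). Over all genes the block moved the calls from 1621 to 2234 at 6 h and from 3388 to 5288 between 24 and 72 h, and leaving out 1 library gave 2011 to 6197 for the latter. With only the 6 libraries compared these counts were 3239 and 1212. For H3K9me2 at 24 h, 950 genes were called, 52 on bound reads alone and 185 to 1297 without 1 library.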
